A study of Capra hircus with 4 samples.

Results

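The TGF-beta signalling genes described here are the ligands TGFB1, TGFB2 and TGFB3, the receptors TGFBR1, TGFBR2 and TGFBR3, the latent binding proteins LTBP1 and LTBP2, and the induced matrix protein TGFBI. They were taken by symbol from the deposited tables, and all 9 were found among 20326 genes. Their RNA was measured in stem cells of the secondary hair follicles of cashmere goats (Capra hircus), the follicles that grow the fine undercoat. The cells were taken from dorsal skin and cultured, either in early anagen (April) or in mid anagen (October), anagen being the growth phase of the hair cycle. Each phase has 2 libraries, 1 from a female and 1 from a male goat, which the labels call biological replicates. The sources used here give no age, passage number or time in culture. No treatment or genetic change is named for either group. In both groups replicate 1 is the female and replicate 2 the male library. Where 2 values are given for a phase, the female library comes first.

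TGF-beta ligands are secreted as latent dimers, held inactive by their own propeptide and tied to the matrix by latent binding proteins until integrins or proteases free them. The free ligand binds the type II receptor, which recruits and phosphorylates the type I receptor, and that in turn activates SMAD2 and SMAD3, which enter the nucleus with SMAD4. In skin this pathway restrains keratinocyte proliferation and induces matrix genes, and in the hair follicle its ligands are known both from the start of growth and from the later regression.

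Values are the authors' abundances per gene, with totals of 844960 to 1186966 per library. They are read here as length-normalised, which the sources used here do not state, so levels compared between genes rest on that reading. The number of reads is unknown, so no counting error can be given. Keratinocyte markers were high in every library, with all 8 at or above 1. Their summed levels were 38890 and 43720 early and 19200 and 20340 mid, and nearly all of each sum came from KRT5 and KRT14, which were lower in both mid libraries. CDH1 and EPCAM were higher in both mid libraries, and TP63, ITGA6, COL17A1 and DSG3 overlapped between phases. The bulge markers SOX9, LHX2, TCF7L1 and NFATC1 were above 1 in every library, CD34 was under 1 in all, and LGR5 was at 0.352 in the early male and at 1.00 to 4.48 in the other libraries. All 6 bulge markers found had both mid libraries above both early ones, though CD34 was too low to be tested. That pattern was shown by 31.5% of the genes tested. The summed levels of the 6 markers were 117.2 and 93.3 early and 201.6 and 226.1 mid. Of these LHX2 passed the test described next (limma adjusted p = 0.0431), and TCF7L1 was at 2.39 and 1.17 early against 11.5 and 15.3 mid. Their part in the differences of the TGF-beta genes was not tested. KRT15 was not found by its symbol. Differences were tested by limma on log2(value + 1) across 12486 genes that reached 1 in at least 2 libraries, with an adjusted p under 0.05 as the threshold.

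None of the 9 genes passed the limma test between phases with phase as the only term. With sex, which is also the replicate number, as a second term, TGFB2 and TGFB3 passed, where 7.34% of tested genes were called higher. With phase alone 0 of 9 had by limma an adjusted p under 0.05, where 38 of all tested genes (0.304%) did and 28 of them (0.224%) were higher at mid anagen. At an unadjusted p under 0.05 there were 5 members, namely TGFB1, TGFB2, TGFB3, TGFBR1 and TGFBI, against 27.9% of all tested genes, and all 5 were higher at mid anagen. In 7 of 9 both mid libraries lay above both early libraries, a pattern shown by 31.5% of tested genes, and in 0 of 9 both lay below, against 30.9%. The 7 were all members but TGFBR2 and LTBP2. TGFB3 is counted in the 7, in the 5 and among the genes that passed with sex as a second term. It reached 1 only at mid anagen, so the filter left it no other direction. The median log2 fold change of the 9 was 0.51, beside 0.01 over all tested genes. Without TGFB2 and TGFB3, neither of which reached 1 in both early libraries, the median of the other 7 was 0.50. With the trend of fold change against annotated gene span removed, the median of the 9 fell to 0.39. That of these 7 was then 0.29, and that of all tested genes 0.02. Without the early male library, 7 of the 9 members had a positive log2 fold change. Rescaling every library to a common total raised the median of all genes to 0.32 and that of the 9 to 0.83, so relative to all genes the 9 stood 0.50 higher as deposited and 0.51 higher after rescaling. After that rescaling 8 of 9, all but TGFBR2, had both mid libraries above both early ones, where 57.2% of tested genes did, and 2 passed the test, where 4.55% of tested genes were called higher.

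Markers of other cell types were read beside these genes. Of 10 fibroblast markers, 9 had both mid libraries above both early ones. COL1A1, COL1A2, COL3A1, DCN, LUM and PRRX1 reached 1 only at mid anagen, so the filter left them no other direction. PDGFRA, PDGFRB and TWIST1 did not reach 1 in 2 libraries and were not tested. The 31.5% of tested genes with this pattern is therefore no background for the 9. The summed level of the 10 markers was 40.4 and 25.6 early and 186.0 and 74.6 mid. THY1, which is not restricted to fibroblasts, was 39.4 and 23.0 of the early sums. PDGFRA and TWIST1 were under 1 in every library but at 0 in none, and DCN was at 0 in the early female. Fibroblast markers were thus highest in the mid female library, as were TGFB1, TGFB3, TGFBR1 and TGFBR3, while TGFB2, LTBP1, LTBP2, TGFBR2 and TGFBI were highest in the mid male library. In bulk RNA, fewer cells of a type and less RNA per cell cannot be told apart. Endothelial markers summed to 1.41 and 0.823 early and 4.66 and 6.12 mid, and most of each mid sum was ERG, at 0.884 and 0.333 early and 4.19 and 5.24 mid, while CDH5 was at 0 throughout. In 4 of the 6 endothelial markers both mid libraries were above both early ones. VWF, KDR and TEK among them were under 1 in every library and were not tested. ERG reached 1 only at mid anagen, so the filter left it no other direction. The 31.5% of tested genes is no background for these 4 either. Immune markers summed to 8.10 and 6.13 early and 17.8 and 11.4 mid, mostly CD14 at mid anagen (12.6 and 8.51, against 3.28 and 2.49), while PTPRC was at 0 throughout. Melanocyte markers summed to 5.79 to 7.18, with DCT at 0 throughout. Smooth muscle and pericyte markers summed to 77.8 and 66.7 early and 74.8 and 107.2 mid. The part of other cell types in the differences was not tested.

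**Figure D1:**
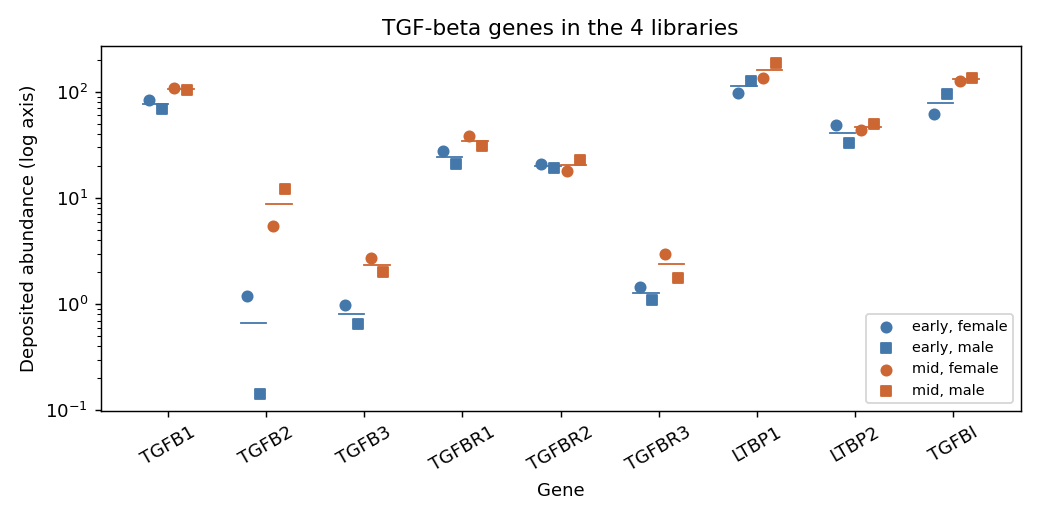
Deposited abundance (log axis) of the 9 TGF-beta genes in each library, early anagen in blue and mid anagen in orange, circles female and squares male, with a line at each phase mean of 2 libraries. LTBP1, TGFBI and TGFB1 are the highest in both phases, and TGFB2 moves farthest, from 1.20 and 0.143 to 5.44 and 12.2.

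TGFB2 had the largest difference of the 9, without passing the test. This ligand is known for its role in the onset of hair growth and binds the type II receptor poorly unless TGFBR3 presents it. TGFB2 (GeneID 100861228) was at 1.20 (female) and 0.143 (male) at early anagen and 5.44 (female) and 12.2 (male) at mid anagen. Both mid values lay above both early values, and within each phase the female and male libraries were far apart, in opposite order. On the log2 scale the difference was 2.54 (SE 0.46, 95% interval 1.40 to 3.68, limma adjusted p = 0.0724, n = 2 per phase), with 1.55 between the female and 3.53 between the male libraries. It did not pass, and ranked 327 of 12486 by unadjusted p. With sex as a second term the adjusted p was 0.0216. Leaving out the mid female library gave 3.06, and leaving out the early male library gave 2.07. With no filter the limma adjusted p was 0.132. It was 0.0894 with the trend of fold change against annotated gene span removed, where the value was 2.39. Rescaling to a common total gave 2.73 with an adjusted p of 0.0454, past the threshold. The size also follows the pseudocount, since the early values are low, with 3.88 at a pseudocount of 0.1 and 1.25 at 5.

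TGFB3, a ligand known from epithelial fusion and wound repair, was low throughout. TGFB3 (GeneID 102189962) was at 0.981 (female) and 0.649 (male) at early anagen and 2.71 (female) and 2.01 (male) at mid anagen. The phases did not overlap, and the female was above the male library in each. Its log2 fold change was 0.89 (SE 0.23, 95% interval 0.32 to 1.46, limma adjusted p = 0.0942, n = 2 per phase). Both early values were under 1, so TGFB3 entered the test only through the mid libraries and its direction was fixed by the filter. With sex as a second term the adjusted p was 0.0349. With a pseudocount of 0.1 the value was 1.44 and with 5 it was 0.34.

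TGFB1, the founding member of the ligand family, was the most abundant ligand here. TGFB1 (GeneID 102191364) was at 84.0 (female) and 68.8 (male) at early anagen and 109.8 (female) and 104.4 (male) at mid anagen. The mid libraries were close to each other and above both early ones. The test gave a log2 fold change of 0.49 (SE 0.17, 95% interval 0.06 to 0.91, limma adjusted p = 0.144, n = 2 per phase), which did not pass. After rescaling to a common total it was 0.83 with an adjusted p of 0.0590, and 0.51 of that lay above the median of all genes.

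**Figure D2:**
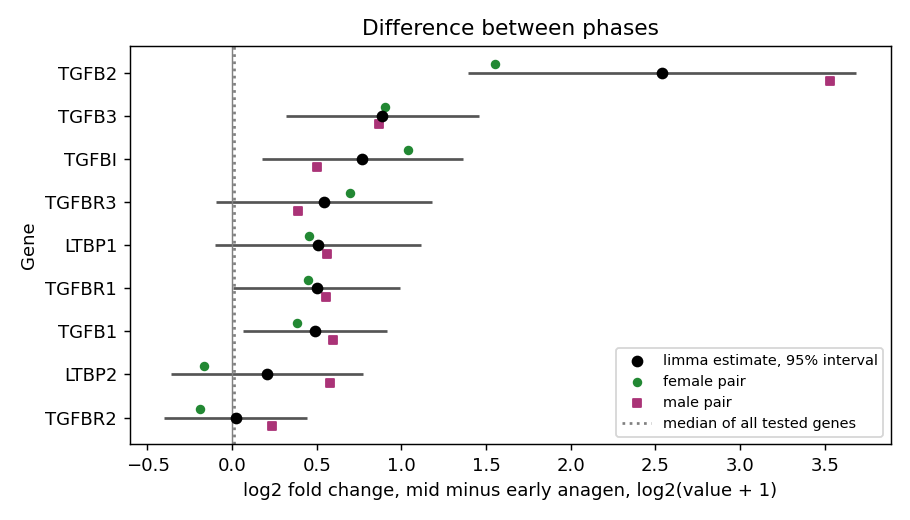
Log2 fold change of the 9 genes, mid minus early anagen on the log2(value + 1) scale, as the limma estimate with its 95% interval (black) and as the female pair (green circles) and male pair (purple squares). TGFB2 stands apart at 2.54, while TGFBR2 and LTBP2 are the genes whose pairs lie on opposite sides of 0.

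The mix of ligands also differed between the libraries of the 2 phases. TGFB1 made up 97.5% and 98.9% of the summed ligand abundance at early anagen and 93.1% and 88.0% at mid anagen. The share of TGFB2 was 1.39% and 0.205% in the early libraries and 4.61% and 10.3% in the mid libraries. The share of TGFB3 was 1.14% and 0.933% early and 2.30% and 1.70% mid. A share is taken within 1 library and is untouched by scaling between libraries. None of the 3 shares overlapped between phases, and with 2 libraries per phase the smallest p an exact two-sided permutation test can give is 0.333, which each reached. The summed level of the 3 ligands was 86.2 and 69.6 early and 118.0 and 118.6 mid.

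LTBP1, which binds the latent complex covalently and ties it to the matrix, was the most abundant of the 9 genes on average in both phases. LTBP1 (GeneID 102190794) was at 97.4 (female) and 127.7 (male) at early anagen and 133.6 (female) and 188.9 (male) at mid anagen. The male library was the higher one in each phase, and the early male value was close to the mid female one. Its log2 fold change was 0.51 (SE 0.24, 95% interval -0.10 to 1.12, limma adjusted p = 0.237, n = 2 per phase). With the trend of fold change against annotated gene span removed it was 0.14 (adjusted p = 0.750). Leaving out the early female library gave 0.31 and leaving out the mid male library 0.26.

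LTBP2, a relative of LTBP1 that sits on microfibrils and is known not to bind latent TGF-beta, showed no common direction. LTBP2 (GeneID 102183880) was at 48.8 (female) and 32.7 (male) at early anagen and 43.4 (female) and 49.3 (male) at mid anagen. The mid values lay on both sides of the early female value, so the phases overlapped. The log2 fold change was 0.21 (SE 0.23, 95% interval -0.36 to 0.77, limma adjusted p = 0.585, n = 2 per phase). The interval covers no difference as well as a rise of the size measured for LTBP1. With a common total the mid values, 46.5 and 58.4, lay above both early ones, 45.7 and 27.5. Without the early male library the log2 fold change was -0.08.

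TGFBR1, the type I receptor kinase that activates the SMADs, was higher in both mid libraries. TGFBR1 (GeneID 102187767) was at 27.7 (female) and 20.9 (male) at early anagen and 38.1 (female) and 31.2 (male) at mid anagen. The female library was above the male one in each phase, and the phases did not overlap. The log2 fold change was 0.50 (SE 0.20, 95% interval 0.01 to 0.99, limma adjusted p = 0.176, n = 2 per phase), which did not pass. It was 0.31 without the early male library and 0.83 with every library rescaled to a common total.

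TGFBR2, the type II receptor that binds the ligand first, had close values in all 4 libraries. TGFBR2 (GeneID 100861300) was at 20.8 (female) and 19.4 (male) at early anagen and 18.1 (female) and 22.9 (male) at mid anagen. The mid libraries lay on either side of the early ones. The log2 fold change was 0.02 (SE 0.17, 95% interval -0.40 to 0.44, limma adjusted p = 0.945, n = 2 per phase). Changes between -0.40 and 0.44 on the log2 scale lie within the interval. The sign turned with the span trend removed, to -0.13, and without the early male or the mid male library, to -0.03 and -0.14.

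TGFBR3, or betaglycan, a co-receptor that presents ligands to the signalling receptors, was low. TGFBR3 (GeneID 102169722) was at 1.45 (female) and 1.11 (male) at early anagen and 2.97 (female) and 1.76 (male) at mid anagen. The phases did not overlap, though the mid male library was nearer to the early female than to the mid female one. Between phases the log2 fold change was 0.54 (SE 0.26, 95% interval -0.10 to 1.18, limma adjusted p = 0.230, n = 2 per phase). It was 0.29 with the span trend removed, 0.28 without the mid female library and 0.23 at a pseudocount of 5.

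The balance of the receptors was followed within each library. The ratio of TGFBR1 to TGFBR2 was 1.33 (female) and 1.08 (male) at early anagen and 2.10 (female) and 1.36 (male) at mid anagen. The mid male ratio was only just above the early female one. The ratio of TGFBR2 to TGFBR3 was 14.3 and 17.5 in the early libraries and 6.10 and 13.0 in the mid libraries. Both ratios separated the phases, at the smallest exact two-sided permutation p that 2 libraries per phase allow, 0.333. The ratio of LTBP1 to TGFB1 did not, at 1.16 (female) and 1.85 (male) at early anagen and 1.22 (female) and 1.81 (male) at mid anagen. That ratio lay close together in the libraries of the same sex. The ratio of LTBP1 to LTBP2 was 1.99 and 3.91 early and 3.08 and 3.83 mid, again overlapping.

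**Figure D3:**
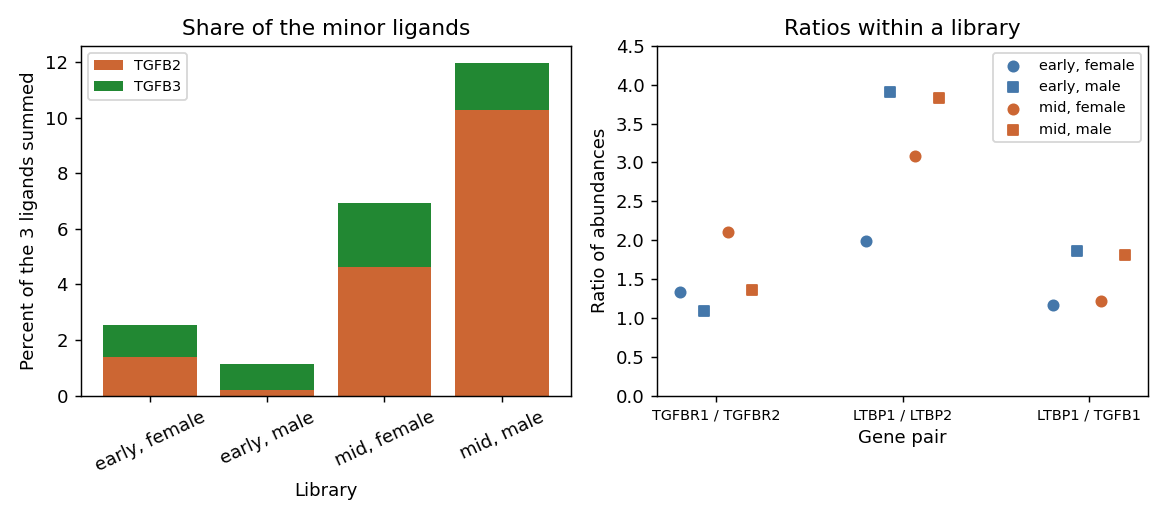
Left, percent of the summed TGFB1, TGFB2 and TGFB3 abundance taken by TGFB2 (orange) and TGFB3 (green) in each library, on an axis from 0; right, ratios of abundances within each library, early in blue and mid in orange, circles female and squares male. The 2 minor ligands together are larger in both mid libraries. The ratio of LTBP1 to TGFB1 separates by sex, which is also the replicate number, and not by phase.

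TGFBI, an adhesion protein of the matrix named for its induction by TGF-beta, was higher in both mid libraries. TGFBI (GeneID 102182971) was at 61.8 (female) and 94.9 (male) at early anagen and 127.8 (female) and 134.8 (male) at mid anagen. The mid libraries were close to each other, the early ones less so, and the phases did not overlap. A log2 fold change of 0.77 (SE 0.24, 95% interval 0.18 to 1.36, limma adjusted p = 0.121, n = 2 per phase) did not pass, with 1.04 in the female and 0.50 in the male pair. After rescaling to a common total it was 1.11 with an adjusted p of 0.0469, past the threshold, of which 0.79 lay above the median of all genes. Without the early female library it was 0.46.

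By mean deposited abundance, the order at early anagen was LTBP1, TGFBI, TGFB1, LTBP2, TGFBR1, TGFBR2, TGFBR3, TGFB3 and TGFB2. At mid anagen TGFB2 stood above TGFBR3 and TGFB3, and the order was otherwise the same. The ranges of TGFBI and TGFB1 overlapped at early anagen, as did those of TGFB3 and TGFB2. At mid anagen the ranges of LTBP1 and TGFBI overlapped, and so did those of TGFBR3 and TGFB3. Among genes above 0 in any library, TGFB2 lay at the percentiles 30.6 and 17.9 early and 42.5 and 55.1 mid. TGFB1 lay at 90.5 and 87.2 early and 93.4 and 93.3 mid. TGFBR2 lay between 63.3 and 68.8 in all 4 libraries.

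TGFB2 had the smallest p of the 9, and genes with the most similar profile over the 4 libraries were looked up by the distance between log2(value + 1) profiles centred on their own mean. Of 9435 candidate genes with a symbol and a mean of at least 5, the nearest was MMP9, a gelatinase that cleaves matrix, at a distance of 0.34. MMP9 was at 39.7 and 23.2 early and 106.2 and 203.4 mid. Next came EDIL3, a secreted integrin ligand (0.47), TCF7L1, a transcriptional repressor downstream of WNT (0.52), TNIK, a kinase that acts with WNT effectors (0.63), and TP53I11 (0.67). In all 5 the early male library was the lowest and the mid male library the highest, as for TGFB2. With 4 libraries, a near match is a description of these libraries only.

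**Figure D4:**
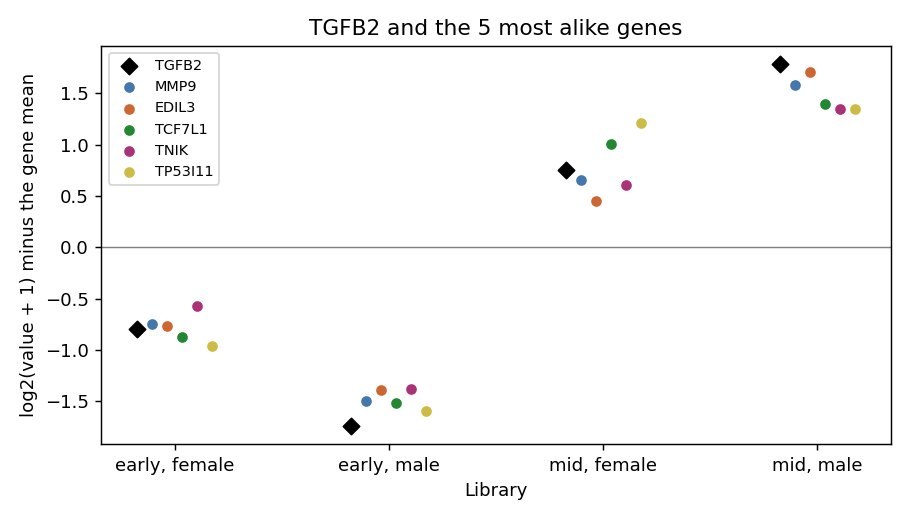
Log2(value + 1) minus the gene's own mean in each library for TGFB2 (black diamonds) and the 5 genes nearest to it. Every gene is lowest in the early male and highest in the mid male library, with MMP9 at a distance of 0.34 from TGFB2.

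Other genes of the pathway were read from lists of latency and activation genes, activin-branch genes, SMADs, inhibitors and targets. These lists were chosen with earlier results of these data known, so their counts and medians are a description only. Of 78 symbols listed, 76 were found and 64 were tested, of which 3 rose and 0 fell by limma, where 0.224% of all tested genes were called higher. CTGF and CCN2 are 2 symbols of 1 gene. Both mid libraries were above both early ones in 42 of the 64 and below in 5, patterns shown by 31.5% and 30.9% of all tested genes. Among all 76 found, tested or not, they were above in 48 and below in 5. The median log2 fold change was 0.44, beside 0.01 for all tested genes, and after rescaling to a common total it was 0.76, beside 0.32. Without either early library 0 of them were called, with 27 and 23 at an unadjusted p under 0.05 in limma, while leaving out the mid female or the mid male library gave 13 and 12, all higher, in fits where 2.65% and 1.53% of all tested genes were called higher. In the 64 are 7 genes that reached 1 only at mid anagen and so could only be higher, namely FBN1, ENG, DCN, COL1A1, COL1A2, POSTN and LOX. FBN1 is also 1 of the 3 that rose. LEFTY2 was not found, and the CTGF gene was found under that symbol only.

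Among 16 latency and activation genes, 11 were tested, 1 rose and 10 did not pass. In 10 of the 11, FBN1 among them, both mid libraries were above both early ones, against 31.5% of all tested genes. The median log2 fold change was 0.87. FBN1, the microfibril protein to which latent binding proteins attach, rose from 0.125 and 0.133 early to 8.48 and 5.86 mid (limma adjusted p = 0.0323). Integrin subunits that free latent ligand were higher in both mid libraries without passing. ITGB6, an epithelial subunit, was at 32.5 and 18.7 early and 118.1 and 93.9 mid, with a difference of 2.05 on the log2 scale (SE 0.29, limma adjusted p = 0.0636). ITGB8 was at 5.14 and 4.87 early and 8.90 and 8.71 mid, with libraries of 1 phase close together (log2 fold change 0.71, adjusted p = 0.0783). ITGAV, the alpha subunit that pairs with both, was at 34.9 and 27.3 early and 49.8 and 57.7 mid (log2 fold change 0.78, adjusted p = 0.0851).

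The activin branch uses its own ligands and receptors but the same SMADs. Of 12 genes 8 were tested and 0 passed by limma, with a median of 0.57. Both mid libraries were above both early ones in 6 of the 8 and below in 0, against 31.5% and 30.9% of all tested genes. INHBA, the subunit of activin A, was at 1.17 and 2.07 early and 3.57 and 4.00 at mid anagen. INHBB, the subunit of activin B, was at 16.2 and 3.68 early and 28.6 and 29.9 mid, so the early male library alone was far below the rest. INHA, the inhibin alpha subunit, was at 1.82 and 1.11 early and 2.44 and 3.46 mid. ENG, endoglin, a co-receptor best known from endothelium, was at 0.362 and 0.399 early and 4.01 and 1.87 mid.

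The SMADs had small differences. Of 5 genes 4 were tested and 0 passed by limma, with log2 fold changes of -0.07 for SMAD2, 0.25 for SMAD3, 0.31 for SMAD4 and 0.27 for ZFYVE9, which anchors SMADs to receptors on endosomes. The median was 0.26. SMAD2 was at 35.2 and 37.3 in the early and 34.0 and 34.7 in the mid libraries, and SMAD4 at 28.8 and 30.1 early and 33.4 and 40.4 mid. With a common total, where the median of all genes was 0.32, the log2 fold change of SMAD2 changed sign to 0.26 and the other 3 lay between 0.58 and 0.64, none past the threshold (limma adjusted p from 0.0842 to 0.294).

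Of 15 inhibitors 13 were tested and 0 passed by limma, with a median of 0.26. Both mid libraries were above both early ones in 7 and below in 2, against 31.5% and 30.9% of all tested genes. SKIL, a SMAD corepressor that the pathway itself induces, was at 4.32 and 4.36 early and 9.78 and 8.89 mid (log2 fold change 0.95, SE 0.15, limma adjusted p = 0.0711). PMEPA1, an induced inhibitor that binds SMADs, was at 76.0 and 103.1 early and 132.4 and 138.8 mid. The phases overlapped for SMAD7, another inhibitor of this list, with 22.7 and 27.4 in the early libraries and 21.8 and 33.6 in the mid libraries. Its log2 fold change was 0.11 (SE 0.24, limma adjusted p = 0.788). The rule did not select SMAD7, which was added with its levels already known. SMURF2, a ubiquitin ligase for the receptors, was at 38.9 and 43.8 early and 51.9 and 63.1 mid. DCN, decorin, a ligand-binding proteoglycan of fibroblasts, was at 0 and 0.0774 early and 21.0 and 3.38 mid. The 2 inhibitors with lower mid values, outside the rule and chosen after their values were seen, were FST and TGIF2. FST, follistatin, which traps activins, had 366.4 and 641.1 early and 256.7 and 331.5 mid (log2 fold change -0.73, limma adjusted p = 0.208). TGIF2, a SMAD corepressor, had 12.4 and 13.1 early and 10.2 and 10.7 mid, a log2 fold change of -0.26 that became 0.06 with a common total.

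All 29 target genes were found and 28 were tested, of which 2 rose and 26 did not pass, with a median of 0.48. Both mid libraries were above both early ones in 16 of the 28 and below in 2, against 31.5% and 30.9% of all tested genes. Of the 16, 4 reached 1 only at mid anagen and could only be higher, namely COL1A1, COL1A2, POSTN and LOX. FN1, fibronectin, was at 0.247 and 1.10 early and 92.0 and 61.7 mid. Its log2 fold change was 5.56 (limma adjusted p = 0.0245). TNC, tenascin, had a log2 fold change of 1.74 (adjusted p = 0.0323). TNC had values of 9.66 and 9.28 early and 35.2 and 32.8 mid, with both phases tight. COL1A1, a type I collagen chain, had 0.179 and 0.987 early and 58.6 and 19.8 mid. LOX, a collagen cross-linking oxidase, had 0.171 and 0.253 early and 2.55 and 1.98 mid. Neither COL1A1 nor LOX passed. COL1A1 is also 1 of the fibroblast markers, and its mid female value was the highest, as was their sum (186.0). MMP9, the gene nearest to TGFB2, is in this list too. The 2 targets with lower mid values, RHOB and MYC, were named after their values were seen. RHOB, a small GTPase, had 280.4 and 315.2 early and 172.5 and 151.3 mid (log2 fold change -0.88, limma adjusted p = 0.0778). MYC, a growth factor-responsive transcription factor, had 166.8 and 177.6 early and 147.7 and 155.9 mid, a log2 fold change of -0.18 that became 0.16 with a common total. CTGF, a secreted matricellular protein often used as a readout of the pathway, is outside the rule for named genes and was chosen after its values were seen. CTGF was at 100.3 and 189.2 early and 127.6 and 268.8 mid, so the phases overlapped and the male library was the higher in each.

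**Figure D5:**
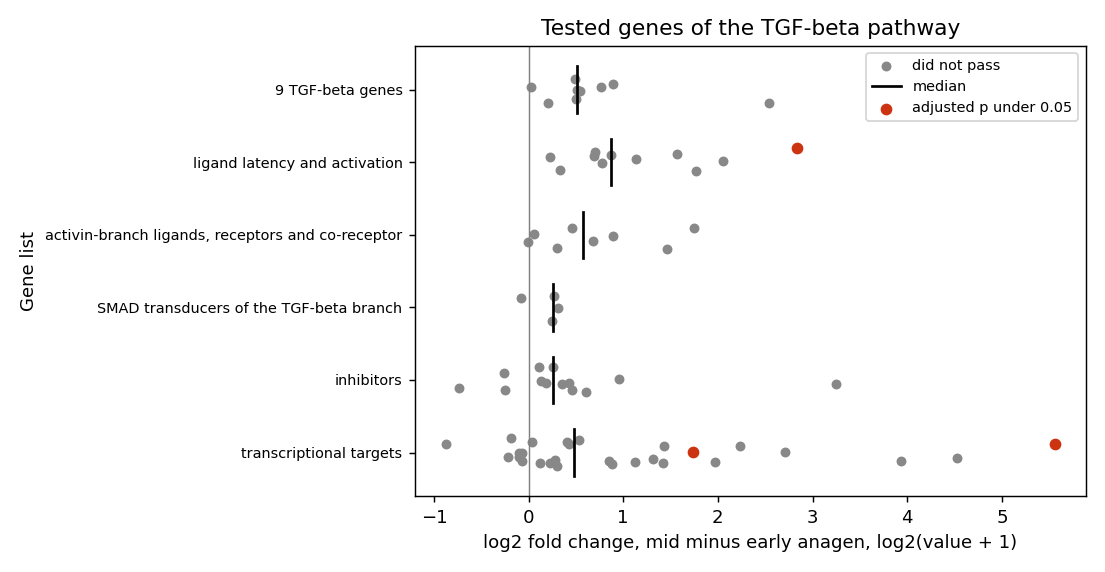
Log2 fold change of each tested gene, mid minus early anagen on the log2(value + 1) scale, in the 9 TGF-beta genes and in 5 lists of other pathway genes, with the list median as a black line and genes past the threshold in red. The 3 red points are FBN1, TNC and FN1, and the medians run from 0.26 to 0.87.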

How the data were processed

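The authors deposited 1 abundance signal per gene and library, and the submitters' processing notes name kallisto 0.46.1 and sleuth 0.30.0. The sources used here give neither the build and annotation nor the way transcripts were combined per gene, nor the read depth, so the precision from counting is unknown. The 4 libraries were grouped by title. The phases were compared with limma 3.58.1 in R 4.3.3, run on log2(value + 1) (intensity trend, phase as the only term, Benjamini-Hochberg over 12486 genes at or above 1 in at least 2 libraries), and a fold change on this scale understates changes of low genes. The test was also run on simulated data in which genes of similar level shared 1 spread. The deposited genes need not share it, so that run does not give the power of the test here. Gene span for 1 alternative came from the RefSeq table of the goat assembly ARS1.2. Alternatives were pseudocounts of 0.1 and 5, no filter, a filter of 5, a common total, span trend removal, a replicate block and leaving out each library. Members, lists and the rule for named genes were chosen with earlier results of these data known. The rule took the 9 members and, from each list, called genes plus the 4 with the smallest p. Whether the libraries come from separate cultures of separate animals is known only from the labels' word biological replicate. In the target list 1 gene is counted but not reported here by name.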

Additional observations from a re-analysis of the deposited data

Results flagged for a closer look

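In TGFBR2 and LTBP2 the female and the male pair moved in opposite directions between phases. For TGFBR2 the log2 fold change between the female libraries was -0.19, while that between the male libraries was 0.23. For LTBP2 the values were -0.17 for the females and 0.58 for the males. Each pair is 1 library per phase, and the difference between the sexes was not tested, since a phase-by-sex term leaves no residual degrees of freedom.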

How the results depend on the processing

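Of 38 genes called by limma, counts became 18 at a pseudocount of 0.1, 0 without a filter (3843 at an unadjusted p under 0.05), 651 at a common total, and 0 to 733 with 1 library left out (0 without either early library, with 2897 and 1445 at an unadjusted p under 0.05). Of the 9 members, 2 were called at a common total (TGFB2 and TGFBI, where 4.55% of tested genes were called higher) and 0 to 1 with 1 library left out (TGFB2 without the mid female library, where 2.65% were called higher). The other pathway genes went from 3 called to 17 at a common total, 0 without a filter and 0 to 13 with 1 library left out. With the replicate number, which equals sex, as a block, 1782 genes were called, 2 members among them, TGFB2 (adjusted p = 0.0216) and TGFB3 (adjusted p = 0.0349), where 7.34% of tested genes were called higher, and 24 other pathway genes. The labels do not say that a number pairs the libraries, and the deviations of same-numbered libraries correlated at 0.292 across genes. TGFBR2 changed sign with the span trend removed (-0.13) and ran from -0.14 to 0.18 with 1 library left out, and LTBP2 from -0.077 to 0.49. The other 7 members kept their sign under every alternative in which they were tested. TGFB3 reached 1 only at mid anagen, so the filter at 1 left it no other direction. The filter of 5 left TGFB3 and TGFBR3 untested. In the fits that leave out a library, the single library left in a phase is taken to vary like the other phase. Unknown depth limits TGFB2, TGFB3 and TGFBR3 most, as the genes with the lowest values.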
